A study of Mus musculus with 6 samples.

Results

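The clustered histone genes of the mouse lie in 4 groups on chromosomes 13, 3, 11 and 6, whose members carry symbols starting with Hist1h, Hist2h, Hist3h or Hist4h. GENCODE M21, on the assembly GRCm38 (mm10), annotates 67 of them as protein coding. The members described here are the 45 that had a row among the 17068 genes of the deposited count table, matched by versioned Ensembl identifier, and the other 22 were not analysed here. They comprised 5 of 6 annotated H1 genes, 7 of 18 H2A genes, 13 of 18 H2B genes, 10 of 12 H3 genes and 10 of 13 H4 genes. By position, 38 belonged to Hist1, 5 to Hist2, 1 to Hist3 and 1 to Hist4. A further 3 rows of these clusters are annotated as pseudogenes and were left out.

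Bulk RNA-Seq had been performed on lateral cortex dissected from 6 female c57/bl6 embryos at E12.5. Of the Cre-negative controls, controls 1, 2 and 4 were Foxp1 fl/+ and control 3 was Foxp1 fl/fl, so every control carried at least 1 floxed allele. The other 2 libraries were labelled Foxp1 fl/fl;Emx1Cre (Foxp1cKO), a model in which Cre is expressed from Emx1 in progenitors of the dorsal telencephalon, so that vessels, blood and cells of ventral origin keep their Foxp1. The comparison asks which transcripts differ when Foxp1, a forkhead transcription factor, is removed from the early cortex. Totals on genes ranged from 50076008 to 78346979 counts, and 3 counts corresponded to 0.0381 to 0.0596 CPM (counts scaled by TMM-normalized library size), a floor for counting error only.

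Foxp1 itself had 59.7, 60.8, 71.2 and 79.1 CPM in controls 1 to 4, and 83.2 and 76.8 CPM in the libraries labelled Foxp1cKO. The log2 difference between the groups was 0.24 (standard error 0.129), with an adjusted p of 0.468 in edgeR's quasi-likelihood fit. The whole-gene count includes exons outside the floxed segment, so it is not a direct measure of the deletion, and the 2 libraries are named by their label throughout.

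Clustered histone genes supply the bulk of new histone protein while DNA is replicated. Unlike most mRNAs, theirs end as a rule without a poly(A) tail. They finish shortly after a conserved stem-loop, which is bound by SLBP and cut with the help of the U7 snRNP, whose ring holds Lsm10 and Lsm11, and they are degraded when replication stops. Npat, at the histone locus body, activates their transcription. Replication-independent histones, such as H3f3a, H3f3b and H2afz, lie outside the clusters in genes with introns, and give polyadenylated mRNAs also outside S phase. In the cortex at E12.5 most cells are cycling progenitors, which makes histone supply a large task of the tissue, but a library that selects poly(A) RNA sees little of these mRNAs. Whether poly(A) selection or ribosomal depletion preceded the stranded kit was not given in the sources used here.

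The stem-loop was searched in the annotated transcripts after the stop codon by the 16-base consensus of the histone stem-loop. An annotated 3′ UTR of at least 20 bases was present for 36 of the 45 members, and 32 of these held the stem-loop, against 14 of 20885 other protein-coding genes (0.067%). The forms below are shown because those of H4 genes differ from those of the other classes, which share theirs in part. Capitals mark the stem-loop, each is written 5′ to 3′ as the DNA of the transcript's strand, and positions are those of the stem-loop in GRCm38.

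Hist1h1c (H1, chr13:23739512-23739527, plus strand): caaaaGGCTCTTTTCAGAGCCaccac

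Hist1h2ae (H2A, chr13:23570668-23570683, minus strand): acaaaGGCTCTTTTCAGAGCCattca

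Hist3h2ba (H2B, chr11:58949349-58949364, plus strand): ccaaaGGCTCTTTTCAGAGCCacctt

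Hist1h2bk (H2B, chr13:22036300-22036315, plus strand): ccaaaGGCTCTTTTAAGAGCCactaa

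Hist1h3c (H3, chr13:23745047-23745062, minus strand): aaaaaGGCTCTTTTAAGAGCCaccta

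Hist1h3g (H3, chr13:23535889-23535904, plus strand): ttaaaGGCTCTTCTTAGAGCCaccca

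Hist1h4i (H4, chr13:22040966-22040981, minus strand): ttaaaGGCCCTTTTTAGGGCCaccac

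Hist4h4 (H4, chr6:136803998-136804013, minus strand): acaaaGGCCCTTTTCAGGGCCcacaa

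Hist1h4b (H4, chr13:23757366-23757381, plus strand): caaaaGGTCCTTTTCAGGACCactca

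The form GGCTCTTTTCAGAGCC was held by 18 members, which were 3 H1, 4 H2A, 7 H2B and 4 H3 genes. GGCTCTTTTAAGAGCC was held by 2 H2B and 2 H3 genes, and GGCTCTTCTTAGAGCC by Hist1h3g alone. The 9 H4 members with a stem-loop held none of these. They carried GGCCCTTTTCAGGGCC (5 genes), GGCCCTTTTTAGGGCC (2 genes) or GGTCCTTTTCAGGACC (2 genes). Of the 4 members with a 3′ UTR but no match, Hist1h1a and Hist2h3b had annotated ends of 48 and 37 bases, and Hist2h2be and Hist1h2bc had 2192 and 742 bases without the pattern.

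The canonical poly(A) signal AATAAA followed the stop codon in 12 of the 36 members with an annotated 3′ UTR, against 80.6% of the 20885 other genes. Among 3′ UTRs of 200 bases or more, the hexamer was found in 11 of 19 members and in 83.0% of other genes, and among shorter ones in 1 of 17 members and in 64.9% of other genes. Both the stem-loop and the hexamer were found in 10 members. The 4 sites below are those of strongly counted members, with the hexamer in capitals and its position in GRCm38.

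Hist3h2ba (chr11:58949507-58949512, plus strand): taatggtattAATAAAtttggttcaa

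Hist2h2be (chr3:96223717-96223722, plus strand): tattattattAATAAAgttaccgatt

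Hist1h1c (chr13:23740342-23740347, plus strand): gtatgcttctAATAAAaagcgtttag

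Hist1h2bc (chr13:23692462-23692467, plus strand): atgtatatatAATAAAtgtcatgtaa

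In Hist3h2ba, Hist2h2be and Hist1h1c the last hexamer lay 21, 16 and 20 bases before the annotated end of the transcript. In Hist1h2bc it lay 441 bases before that end, and in Hist1h2be, whose site is not shown, 691 bases. Of the 8 members with a mean of at least 100 counts, 5 held the hexamer. The members with the hexamer had a median level of 0.691 CPM per kb of transcript (n = 12), those with a 3′ UTR but no hexamer 0.526 (n = 24), and those with no annotated 3′ UTR 0.736 (n = 9). In counts, which are not divided by length, the medians were 51.5, 23.5 and 21.2, and 7 of 12, 3 of 24 and 1 of 9 members had a mean over 50 counts. The ranges per length of these 3 sets overlapped (0.0551 to 76.1, 0.228 to 17.8, and 0.381 to 2.69 CPM per kb).

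Clustered histone genes gave few counts in these libraries. They took 0.0106% to 0.0128% of all counts, and their summed CPM was 120.6, 120.1, 119.5 and 127.4 in controls 1 to 4 and 105.9 and 125.3 in the libraries labelled Foxp1cKO. The 11 histone genes listed as replication-independent, among them H1f0, H1fx and H2afx, which have no introns, summed to 3167 to 3548 CPM, which was 26.5 to 29.9 times as much in the same library. The median member had a mean of 23.8 counts, against 1313 for all genes, and 34 of 45 members had a mean under 50 counts. Per length, the median member stood at 0.539 CPM per kb and the median gene at 6.18 CPM per kb. Of 10 listed RNAs known to lack a poly(A) tail, 3 were measured, and Rn7sk, an abundant small nuclear RNA of most cells, had 1.58 to 2.62 CPM over the 6 libraries.

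Few members carried most of the signal. Hist3h2ba, an H2B gene on chromosome 11, had 45.9, 51.0, 52.1 and 39.9 CPM in controls 1 to 4 and 41.5 and 50.1 CPM in the libraries labelled Foxp1cKO. Hist2h2be, an H2B gene on chromosome 3 with a long annotated 3′ UTR, had 28.9, 22.6, 24.9 and 31.3 CPM in the controls and 20.98 and 22.7 CPM in the labelled libraries. Hist1h4i, an H4 gene, had 13.3, 12.9, 9.73 and 18.1 CPM in the controls and 10.5 and 13.1 CPM in the labelled libraries. In none of these 3 genes did both labelled libraries lie outside the range of the controls. Together they made up 68.6% to 73.0% of the summed CPM in each library, and with Hist1h1c, Hist1h2be and Hist1h2bc 84.2% to 86.6%. Per length the order of the top 5 was Hist3h2ba (76.1 CPM per kb), Hist1h4i (17.8), Hist2h2be (9.63), Hist1h2bc (4.37) and Hist1h1c (4.28).

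**Figure D1:**
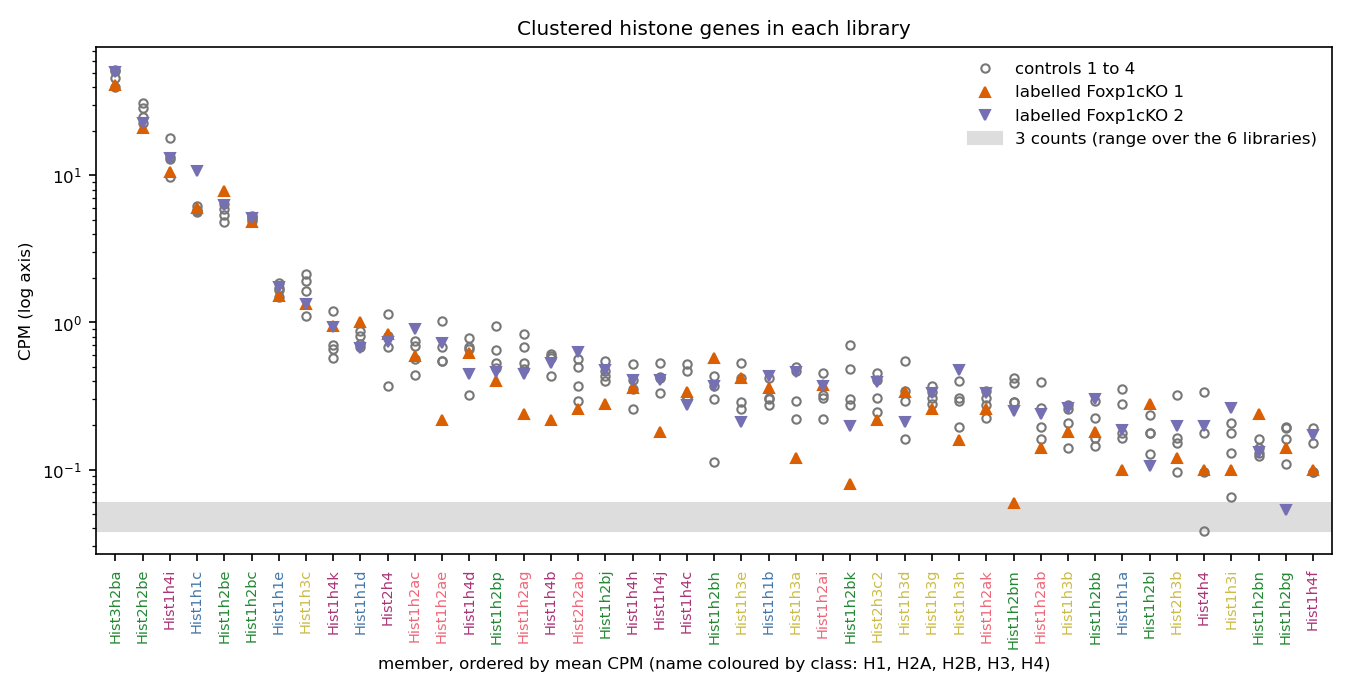
CPM of each of the 45 members in each library on a log axis, ordered by mean CPM, with open circles for the 4 controls and triangles for the 2 libraries labelled Foxp1cKO. Hist3h2ba, Hist2h2be and Hist1h4i stand above 9 CPM in every library. Most members lie between 0.1 and 1 CPM, above the band of 3 counts (0.0381 to 0.0596 CPM).

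The libraries differed within the groups as well as between them. On the deposited VST values, principal component 1 (40.0% of the variance) had control 3 and control 4 at its ends, and component 2 (32.5%) parted the groups. Control 3 had the highest sum of 6 markers of ventral telencephalon (612 CPM against 168 to 425 in the others). The 425 CPM belonged to the library labelled Foxp1cKO 1. Neuron markers summed to 3906, 4717, 5048 and 2798 CPM in controls 1 to 4, and to 3628 and 3797 CPM in the labelled libraries. Red cell markers summed to 968 to 1243 CPM in controls 1 to 3, to 3327 CPM in control 4, and to 3666 and 3928 CPM in the labelled libraries. Emx1, a marker of the dorsal telencephalon, was present in every library (68.8 to 135 CPM). The part of these differences in the results was not tested. In bulk tissue, fewer cells of a type and less RNA per cell cannot be told apart.

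All 17068 genes entered edgeR's quasi-likelihood fit of the group, and adjusted p-values (Benjamini-Hochberg) were held to a threshold of 0.05. No clustered histone gene passed the threshold (0 of 45), beside a background of 0.152% of all genes. At an unadjusted p under 0.05 there was 1 of 45 (2.22%), with a background of 13.0%. DESeq2 gave an adjusted p to 16 of the 45 members and called 0 of these 16, beside 3.36% of the genes it adjusted, and limma called 0 of 45 beside 0.158%. At an unadjusted p under 0.05 each had 2 of 45 members (4.44%), beside 13.9% of all genes with DESeq2 and 13.6% with limma. In 4 members (8.89%) both labelled libraries lay outside the range of the controls, all 4 below it, with a background of 24.6%. The summed CPM was 121.9 ± 3.68 (SD, n = 4) in the controls and 115.6 ± 13.7 (SD, n = 2) in the labelled libraries, a log2 ratio of -0.08. That ratio rested on the library labelled Foxp1cKO 1, since without it the ratio was 0.04, and without the library labelled Foxp1cKO 2 it was -0.22.

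The median log2 fold change of the members was -0.05, beside -0.0044 for all genes, with 18 above 0 and 27 below. Against the mean of the controls, the median member stood at -0.04, 0.01, -0.08 and 0.20 in controls 1 to 4 (log2, SD 0.123), and at -0.22 and 0.05 in the libraries labelled Foxp1cKO 1 and 2. Control 4 and the library labelled Foxp1cKO 1 thus lay farthest apart, and the library labelled Foxp1cKO 2 lay within the controls. The median standard error of a member's log2 fold change was 0.40, against 0.17 for all genes, so a change of that size was not detectable for the typical member with these libraries. Over the 11 members with a mean of at least 50 counts, standard errors ran from 0.135 to 0.428 (median 0.228) and the median log2 fold change was -0.04.

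**Figure D2:**
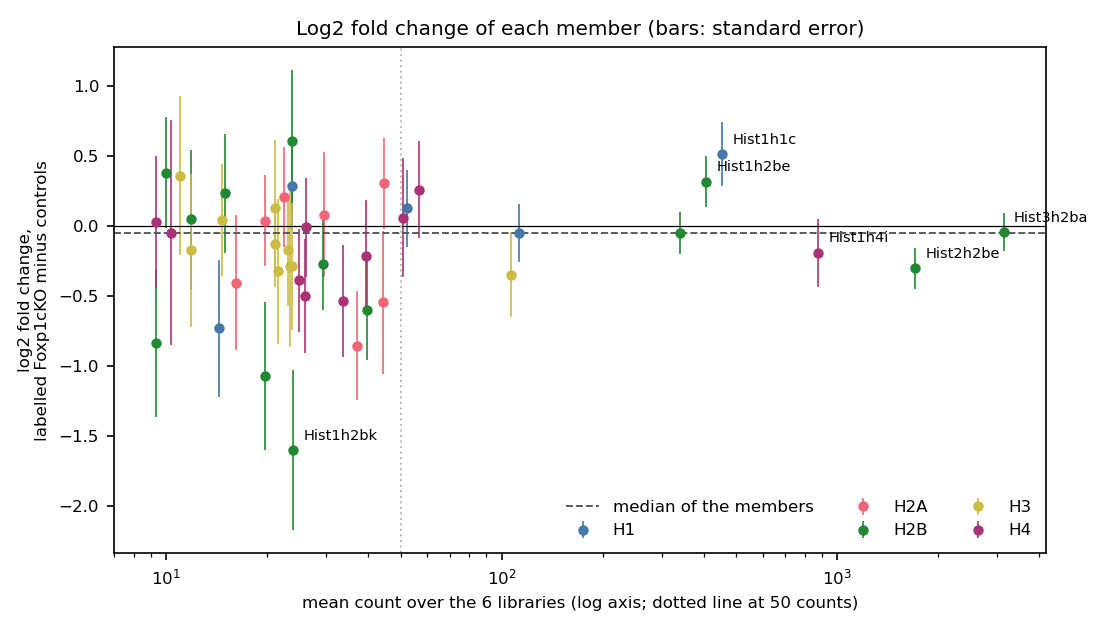
Log2 fold change of each member (libraries labelled Foxp1cKO minus controls) against its mean count on a log axis, with bars for the standard error and colours for the class. The members with few counts spread from -1.60 to 0.61 with wide bars, and those above 50 counts lie between -0.35 and 0.52.

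H1 linker histones bind the DNA between nucleosomes, and all 5 measured genes are given. Hist1h1c had 5.80, 5.68, 5.69 and 6.20 CPM in the controls, 6.04 CPM in the library labelled Foxp1cKO 1 and 10.7 CPM in the library labelled Foxp1cKO 2. The last value stood above all controls and the first lay among them, and the log2 fold change was 0.52 ± 0.228 (SE, adjusted p = 0.399). Without the library labelled Foxp1cKO 2 its log2 fold change was 0.03. Hist1h1e had 1.502 to 1.87 CPM in the controls and 1.51 and 1.74 CPM in the labelled libraries, which overlap entirely, although its exons overlap those of Hist1h2be on the same strand. Hist1h1d lay at 0.672 to 1.01 CPM, Hist1h1b at 0.274 to 0.435 CPM and Hist1h1a at 0.0994 to 0.354 CPM over the 6 libraries, with log2 fold changes of 0.13, 0.29 and -0.73 and adjusted p-values of 0.879, 0.73 and 0.552. The summed H1 level was 8.86 ± 0.365 CPM (SD, n = 4) in the controls and 11.4 ± 3.30 CPM (SD, n = 2) in the labelled libraries, most of it from Hist1h1c.

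H2A genes were weakly counted throughout. The 7 measured members had means of 0.231 to 0.659 CPM, and their sum was 3.16, 3.09, 2.80 and 3.91 CPM in the controls and 2.09 and 3.65 CPM in the labelled libraries. Hist1h2ag, the highest per length (1.10 CPM per kb), had 0.533, 0.676, 0.480 and 0.838 CPM in the controls and 0.238 and 0.448 CPM in the labelled libraries. Both labelled libraries lay below all controls, and the log2 fold change was -0.85 ± 0.391 (SE, adjusted p = 0.409). As 76.2% of its 100-base windows occur in another gene's transcripts, some of its reads could match several genes equally and go uncounted. Hist1h2ae had 0.547 to 1.03 CPM in the controls and 0.219 and 0.725 CPM in the labelled libraries, and Hist2h2ab had 0.292 to 0.563 CPM against 0.258 and 0.633 CPM. In both genes the labelled libraries lay on either side of the control mean.

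H2B genes held 67.9% to 75.7% of the summed CPM, most of it from Hist3h2ba and Hist2h2be. The log2 fold change of Hist2h2be was -0.30 ± 0.146 (SE, adjusted p = 0.429), with the labelled libraries at and just below the lowest controls. Hist3h2ba had -0.04 (standard error 0.135, adjusted p = 0.925). Hist1h2bc had the smallest spread among controls of the 11 members with at least 50 counts, at 5.20, 4.91, 5.05 and 5.28 CPM in the controls and 4.79 and 5.10 CPM in the labelled libraries. Hist1h2be had 5.39, 4.83, 5.94 and 6.44 CPM in the controls and 7.79 and 6.31 CPM in the labelled libraries, a log2 fold change of 0.32 ± 0.181 (SE, adjusted p = 0.491). Reads in the exonic stretch that it shares with Hist1h1e cannot be assigned to 1 gene. The authors' counting (HTSeq, union mode) leaves such reads out of both.

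Hist1h2bk, chosen after its values were seen, was the member with the unadjusted p under 0.05. It had 0.274, 0.483, 0.302 and 0.698 CPM in the controls and 0.0795 and 0.198 CPM in the labelled libraries, which is 17 to 55 counts against 4 and 15. Both labelled libraries lay below all controls, with a log2 fold change of -1.60 ± 0.575 (SE, adjusted p = 0.336). Hist1h2bm and Hist1h2bp, also named for their values, were the other H2B genes whose groups did not overlap. Hist1h2bm had 0.288 to 0.419 CPM in the controls and 0.0596 and 0.250 CPM in the labelled libraries, and Hist1h2bp had 0.494 to 0.940 CPM against 0.397 and 0.461 CPM. Their adjusted p-values were 0.435 and 0.507, and the first value of Hist1h2bm rests on 3 counts.

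H3 genes summed to 4.41, 4.26, 3.54 and 4.99 CPM in the controls and 3.24 and 4.15 CPM in the labelled libraries. Hist1h3c, the highest of them, had 1.91, 1.64, 1.11 and 2.15 CPM in the controls and 1.33 and 1.34 CPM in the labelled libraries. The nearly equal labelled values lay inside the range of the controls, and the log2 fold change was -0.35 ± 0.302 (SE, adjusted p = 0.654). Hist1h3h had 0.193 to 0.398 CPM in the controls and 0.159 and 0.475 CPM in the labelled libraries, and 92.0% of its windows are shared with other genes. Hist1h3a had 0.220 to 0.499 CPM in the controls and 0.119 and 0.461 CPM in the labelled libraries. In the other 7 H3 genes no library exceeded 0.546 CPM.

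H4 genes summed to 16.8, 17.5, 13.9 and 22.6 CPM in the controls and 14.2 and 17.2 CPM in the labelled libraries, so that control 3 and control 4 enclosed both. Hist1h4i set this pattern, with a log2 fold change of -0.19 ± 0.245 (SE, adjusted p = 0.778). Hist1h4k had 0.662, 0.708, 0.576 and 1.19 CPM in the controls and 0.954 and 0.936 CPM in the labelled libraries, a log2 fold change of 0.26 ± 0.345 (SE, adjusted p = 0.781). Hist1h4b had 0.432 to 0.614 CPM in the controls and 0.219 and 0.527 CPM in the labelled libraries. Hist2h4 on chromosome 3 varied the most among controls of the members with at least 50 counts, from 0.371 to 1.14 CPM, with 0.835 and 0.738 CPM in the labelled libraries. Hist4h4, the only member on chromosome 6, had 0.178, 0.338, 0.0960 and 0.0381 CPM in the controls and 0.0994 and 0.198 CPM in the labelled libraries, and its lowest library held 3 counts.

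The median SD of log2 values among the controls was 0.381 over the members and 0.199 over all genes, at median means of 23.8 and 1313 counts. The variance of counts among controls over their mean, scaled for library size (1 for counting error alone, and larger with more counts at the same relative spread), had a median of 2.17 over the members and 14.4 over all genes, and was under 2 for 46.7% of members and 12.8% of genes. Hist1h4i, Hist3h2ba and Hist2h2be, with more counts, had values of 66.5, 49.3 and 39.3. Control 4 was the highest control for 20 of 45 members (44.4%, beside 36.3% of all genes), and control 3 the lowest for 15 (33.3%, beside 34.5%).

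Among the controls, the sums of the cell cycle genes and of the histone members were both highest in control 4 and lowest in control 3. For the histone members the low end was narrow, at 119.5 CPM in control 3 beside 120.1 CPM in control 2. The H2A, H3 and H4 sums had the same ends, while H1 was highest in control 4 but lowest in control 1. The H2B sum, 67.9% to 75.7% of the total, was instead highest in control 3 (90.4 CPM) and lowest in control 2 (86.3 CPM). Of 24 listed S phase genes 23 were measured, and all 23 were highest in control 4 and lowest in control 3 among the controls, as were all 15 G2/M genes. The S phase genes summed to 3496, 3280, 2815 and 4261 CPM in the controls and to 2927 and 2956 CPM in the labelled libraries. Their log2 fold changes were below 0 in 23 of 23 genes (median -0.25, 0 past the threshold), beside 27 of 45 histone members (median -0.05). Pcna, the sliding clamp of the replication fork, had 218 to 352 CPM in the controls and 208 and 241 CPM in the labelled libraries. Relative to the control mean, control 3 and control 4 stood at 0.813 and 1.23 for the S phase sum, at 0.980 and 1.04 for the sum of all members, and at 0.909 and 1.14 for the sum without the top 6 members. For the H4 genes the same values were 0.785 and 1.28. Only 1 library stands at each end, so these values are given side by side without a test.

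**Figure D3:**
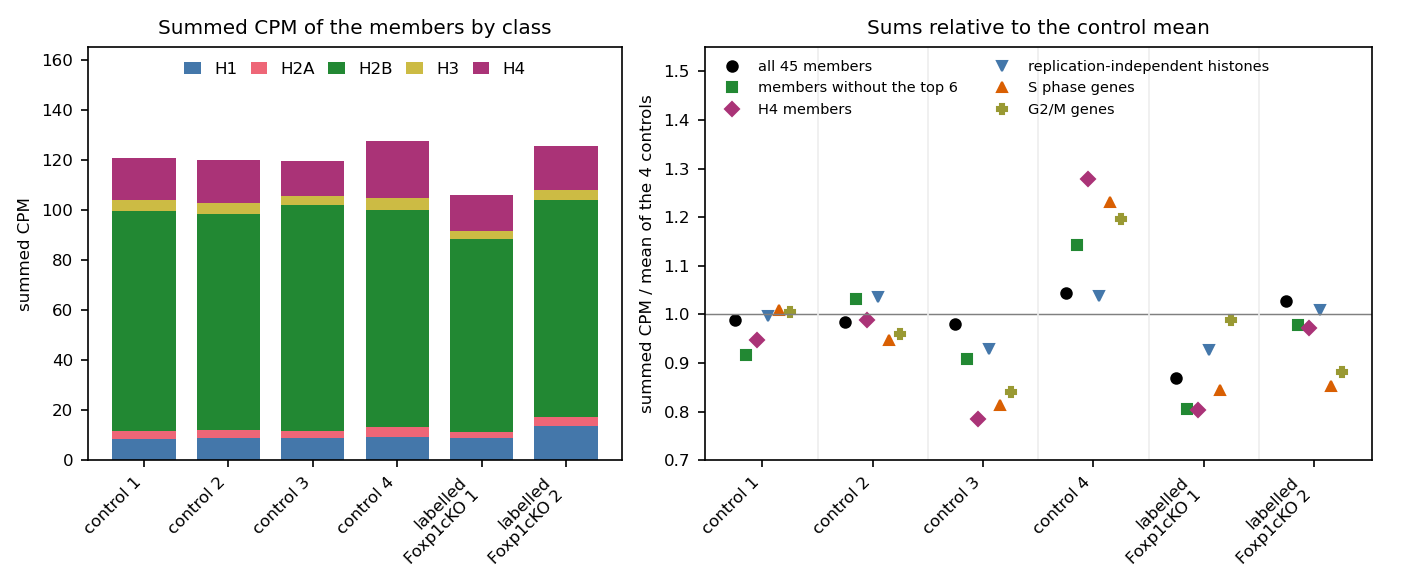
Left, summed CPM of the members in each library, stacked by class. Right, sums of the members and of other gene lists in each library divided by the mean of the 4 controls, where the S phase genes run from 0.813 in control 3 to 1.23 in control 4 and all 45 members from 0.868 in the library labelled Foxp1cKO 1 to 1.04 in control 4.

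The factors that make and process histone mRNA were measured in full. Of 20 listed, 0 passed the threshold, 15 had a log2 fold change below 0 and 5 above, with a median of -0.11. Slbp, which binds the stem-loop, had 97.3, 87.7, 79.4 and 119 CPM in the controls and 80.1 and 80.3 CPM in the labelled libraries (log2 fold change -0.26, standard error 0.158, adjusted p = 0.521). The labelled libraries lay at the low end of the controls, beside control 3. Npat had 74.99 to 89.9 CPM in the controls and 87.4 and 84.1 CPM in the labelled libraries, and Casp8ap2, a partner of Npat in the histone locus body, 121 to 158 CPM against 129 and 125 CPM. Lsm10 had 9.48 to 10.8 CPM in the controls and 8.07 and 10.1 CPM in the labelled libraries, and Lsm11 30.8 to 40.3 CPM against 30.5 and 31.8 CPM. In 7 of the 20 factors both labelled libraries lay below all controls, and in 1 above. Over all 17068 genes the counts were 2235 below and 1965 above, together the 24.6% background.

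Chaperones, which carry histones to DNA, and the replication-independent histones were likewise without a call (0 of 20 and 0 of 11). Their median log2 fold changes were -0.15 and -0.13, with 18 and 7 genes below 0. Both labelled libraries lay below all controls in 6 of 20 and 2 of 11, and above in 0 of each, beside the 24.6% background. H2afz had 323 to 469 CPM in the controls and 289 and 365 CPM in the labelled libraries (log2 fold change -0.27, adjusted p = 0.506). H3f3a had 345 to 385 CPM in the controls and 358 and 368 CPM in the labelled libraries, and H3f3b 810 to 979 CPM against 870 and 929 CPM, so that neither H3.3 gene had both labelled libraries outside the controls.

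Near-identical copies limit what a count per gene can say. A median of 28.4% of a member's 100-base transcript windows occurred in another gene, 12.1% for the 11 members with at least 50 counts and 34.9% for the other 34. For the 22 annotated genes not analysed here the median was 73.0%. More than 50% of windows were shared in 12 members, and the exons of 11 overlapped those of another gene. Whether counting used the strand was not given in the sources used here. The authors kept uniquely mapped reads, so reads that match several genes equally were not counted. The median log2 fold change was -0.04 over the 21 members with under 25% of windows shared.

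**Figure D4:**
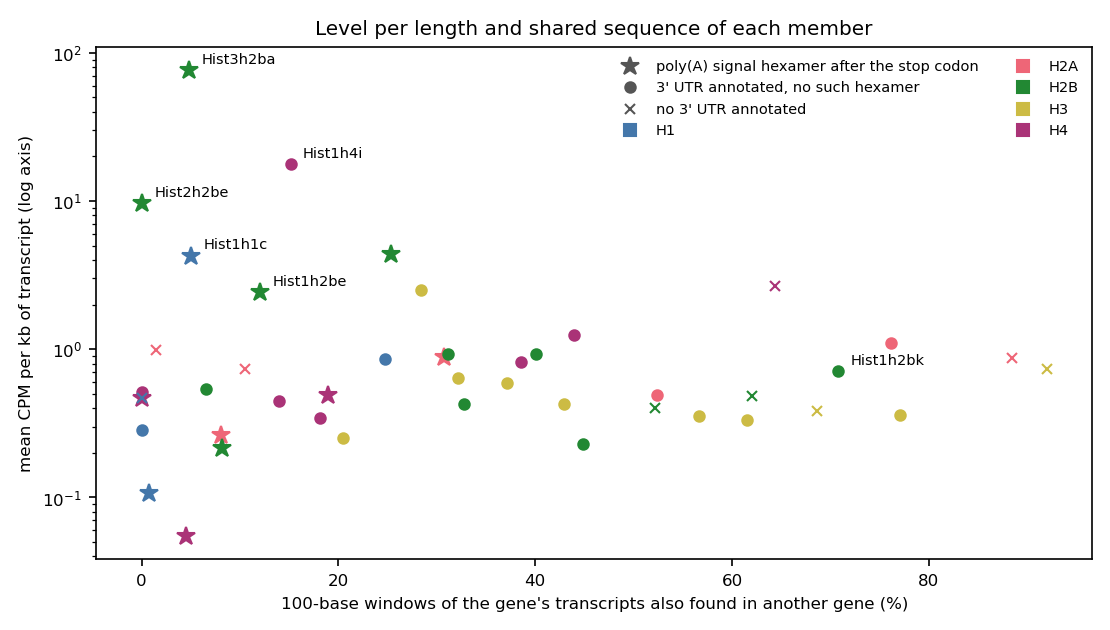
Mean CPM per kb of transcript of each member on a log axis against the share of its 100-base windows found in another gene, with stars for members whose transcript holds the poly(A) signal hexamer after the stop codon. The levels above 4 CPM per kb all lie at 25.4% of shared windows or less.

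Many H2A and H2B genes face away from each other across a short interval. In 12 annotated pairs the starts lay within 500 bases, and in 5 of these both genes were measured. Hist1h2ac and Hist1h2bc, with 251 bases between their starts, had 0.265 and 4.37 CPM per kb, and Hist1h2ae and Hist1h2bg, with 176 bases, 0.889 and 0.228 CPM per kb. The other 3 pairs, Hist1h2bl with Hist1h2ai, Hist1h2ak with Hist1h2bn and Hist1h2ag with Hist1h2bj, lay at 0.404 to 1.10 CPM per kb. The promoter of Hist1h2ac (chr13:23683910-23684209, minus strand, RefSeq sequence on GRCm38.p6, from 250 bases before to 50 after the start) is shown because it spans that interval, and that of Hist3h2ba (chr11:58948661-58948960, plus strand) because it belongs to the strongest member. Capitals mark the CCAAT box, the TATA box searched as TATAAA, and the octamer searched as ATTTGCAT, on both strands, and none of these patterns contains another.

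Hist1h2ac: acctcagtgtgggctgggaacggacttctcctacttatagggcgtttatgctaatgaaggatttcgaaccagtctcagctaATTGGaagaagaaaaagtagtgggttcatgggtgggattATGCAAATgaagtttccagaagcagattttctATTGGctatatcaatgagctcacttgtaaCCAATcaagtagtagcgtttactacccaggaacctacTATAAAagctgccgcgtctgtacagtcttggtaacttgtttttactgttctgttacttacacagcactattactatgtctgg

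Hist3h2ba: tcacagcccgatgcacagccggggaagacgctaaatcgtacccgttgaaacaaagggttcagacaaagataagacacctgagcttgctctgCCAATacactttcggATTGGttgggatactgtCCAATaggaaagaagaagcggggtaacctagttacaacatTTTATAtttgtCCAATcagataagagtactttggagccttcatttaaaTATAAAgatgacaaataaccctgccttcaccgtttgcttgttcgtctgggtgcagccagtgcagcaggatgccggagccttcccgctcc

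Promoters were matched by symbol or RefSeq synonym for 40 of 45 members. CCAAT was found in 82.5% of them and in 37.9% of 27025 promoters of all genes, TATAAA in 57.5% and 14.2%, and ATTTGCAT in 17.5% and 1.75%. CCAAT was held by every matched promoter of H1 (4), H2A (7), H2B (11) and H3 (9) genes, and by 2 of 9 H4 promoters. ATTTGCAT occurred in 3 of 7 H2A and 4 of 11 H2B promoters and in no H1, H3 or H4 promoter matched. Windows of genes that face away from each other can overlap, so a site can be counted for both genes. The octamer of Hist1h2ae and that of Hist1h2bg are such a shared site. These matches describe the letters of a 300-base window and say nothing of which factors bound there.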

How the data were processed

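The authors extracted RNA with a miRNeasy kit, prepared libraries with a TruSeq Stranded RNA kit, and sequenced paired ends. STAR was the aligner (mm10), HTSeq 0.9.1 the counter (union mode), and the authors dropped weakly counted genes. The deposited values are raw, whole counts. The authors also deposited VST values, on a log2-like scale, used here for the principal components and for limma. Their model also held the litter, which the labels do not give.

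Counts were tested in R 4.3.3 with edgeR 4.0.16 (quasi-likelihood, TMM, group alone, all genes, Benjamini-Hochberg). Standard errors are the log2 fold change over the root of F. CPM used TMM-scaled library sizes, and levels per length divided mean CPM by the longest annotated transcript. No filter was added. Each test was also tried on simulated counts. DESeq2 1.42.0, limma 3.58.1, other normalizations, filters, left-out libraries and the replicate block were alternatives. An exact permutation test of a single value cannot pass 0.05 at these group sizes (4 and 2), so sums and medians carry no test. Without the litter, p-values measure the spread between these libraries, litters included.

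The members, the gene lists and the tests were chosen with earlier results of these data known. Named genes were the 3 members of each class with the highest level per length, all H1 genes, the members of Hist3 and Hist4, the 5 highest and 5 lowest log2 fold changes and the 3 largest and 3 smallest spreads among controls (each among members with a mean of at least 50 counts), any member past the threshold, and Slbp, Npat, Casp8ap2, Lsm10, Lsm11, H3f3a, H3f3b, H2afz and Foxp1. Others are marked as chosen after their values were seen or given as examples of a list or pair.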

Additional observations from a re-analysis of the deposited data

Results flagged for a closer look

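Among the 4 controls, 43 named genes and sums were examined for 1 value far from the other 3 (Dixon's test at the 95% level), and 3 were found, where chance gives about 1 in 20. All 3 had control 4 as the high value. The summed CPM of all members was 127.361 in control 4 against 119.5 to 120.6 in the others, Casp8ap2 had 158.144 CPM against 121 to 127 CPM, and H3f3a had 385.474 CPM against 345 to 351 CPM.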

How the results depend on the processing

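Under every alternative run, 0 of 45 members (0 of 11 with a filter at 50 counts, and 0 of the 16 to which DESeq2 gave an adjusted p) passed the threshold, while the calls over all genes ran from 0 with the replicate block to 507 with DESeq2, beside 26. At an unadjusted p under 0.05 there was 1 member (all genes 13.0%), 2 with DESeq2 (13.9%), 2 with limma (13.6%), 0 with the filter at 50 counts (13.7%), and 1 to 6 with a library left out (5.51% to 19.1%). The 6 of 45 came without the library labelled Foxp1cKO 2 (8.88%). The median log2 fold change of the members (-0.05) was -0.10 to -0.03 under the other tests, normalizations and filters and -0.30 to 0.0396 with a library left out. The log2 ratio of the sums (-0.08) was -0.22 to 0.0398 with a library left out, the ends coming from the libraries labelled Foxp1cKO, and 0.0754 without the 3 members with the most counts, an alternative chosen after seeing the data. VST values give no summed CPM. Of the 29 named genes, 16 kept their sign under every alternative, and none passed the threshold where it had an adjusted p, which 7 lacked with DESeq2. Signs turned with limma for Hist4h4 (0.0038). Left-out libraries gave ranges across 0 for H3f3a (-0.0164 to 0.0590), H3f3b (-0.0601 to 0.0523), Npat (-0.0135 to 0.0862), Casp8ap2 (-0.12 to 0.0325), Hist2h4 (-0.18 to 0.33), Hist1h3h (-0.91 to 0.67), Hist4h4 (-0.68 to 0.59), Hist2h2ab (-0.75 to 0.56), Hist1h1d (-0.19 to 0.38), Hist1h1e (-0.18 to 0.0459), Hist1h2ae (-1.70 to 0.0396), Hist1h3a (-1.62 to 0.33) and Hist3h2ba (-0.20 to 0.0873). The causes were not tested.

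Numbers 1 and 2 occur in both groups but name different embryos. When libraries were paired by number, their departures from the group averages correlated at -0.0975, and at 0.0975 with the numbers crossed. Only 2 libraries are labelled Foxp1cKO, so their departures mirror each other and the correlations differ only in sign. These values cannot decide whether same-numbered libraries shared a litter. With the replicate block 1 member had an unadjusted p under 0.05 (all genes 17.7%), the median log2 fold change was -0.08 and the log2 ratio of the sums -0.06. Signs turned for Casp8ap2 (0.0129), H3f3b (-0.0650), Hist1h1e (0.0396) and Hist2h2ab (-0.34).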
